A study of Mus musculus with 6 samples.

Results

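The genes described here are 41 genes of DNA repair and the DNA damage checkpoint, measured by RNA sequencing in regulatory T cells (Treg cells) from mouse spleen. They were taken by gene symbol from a list of repair and checkpoint genes. The rule itself uses no measured value, but the list was drawn up with earlier results of these data known. All 41 were found among the 14608 genes of the deposited tables. All 41 also passed the filter on low values that left 12233 genes for testing. They were divided by function into homologous recombination (12 genes), the Fanconi anaemia pathway (7), the replication checkpoint with the RPA subunits (8), break sensors and p53 (7), end joining (4), and mismatch and single-strand break repair (3).

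The study compared Treg cells of 3 genotypes with 2 libraries each: wild type (WT), mice with a knockout of 1 copy of the small GTPase gene Cdc42 (labelled Cdc42+/-), and mice with a knockout of both copies (labelled Cdc42-/-). The sample titles do not say how many mice gave each library. Single libraries are named by genotype and replicate, and paired values are given for replicate 1 and then 2. All 6 libraries came from CD4-enriched splenocytes that were sorted as CD4+YFP+, so WT cells carried the YFP reporter too. The labels name no Cre driver, age, sex, treatment or batch. Values are RPKM, the reads of a gene divided by its length and by the reads of the library, and levels of different genes can be compared on this scale.

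A cell with a broken chromosome can rejoin the ends directly, by end joining, or copy the missing sequence from the sister chromatid, by homologous recombination. The second route needs a replicated chromosome and is used in S and G2 phase, and many of its genes are transcribed mainly in cycling cells. The Fanconi anaemia pathway clears DNA crosslinks at replication forks. The kinases ATR and CHK1 watch over the fork, while ATM and CHK2 respond to double-strand breaks, and both routes can act on p53, which MDM2 marks for degradation. Resting T cells keep end joining and break sensing genes on, and T cells that divide add the replication-linked set.

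The libraries held between 8556576 and 17796100 reads in genes, and single members had between 2 reads (Rad51ap1 in 1 WT library) and 3864 reads (Atm). Cdc42 itself had 166 and 161 RPKM in the WT pair and 164 and 156 in the Cdc42+/- pair. In the Cdc42-/- pair Cdc42 had 122 and 173 RPKM (limma log2 fold change against WT -0.17, SE 0.17, adjusted p 0.550). The labels do not say which part of it is deleted, so its level does not check the genotypes, which are used as labelled. Defining Treg genes were present in every library, with Foxp3 between 58.5 and 131 RPKM (lowest in replicate 2 of Cdc42-/-). The 8 Treg and CD4 T cell markers summed to 1748 to 1872 RPKM in the WT and Cdc42+/- libraries and to 1409 and 1141 RPKM in the Cdc42-/- pair. Of these markers Ikzf2, Cd3e, Cd3d and Cd3g were called lower in Cdc42-/- than in WT by the test described further on, with Ikzf2 at a mean of 128.5 RPKM in WT and 69.8 RPKM in Cdc42-/- (limma, adjusted p 0.0311), and the other 4 did not pass the threshold. Of these 4, Ctla4 stood higher in both Cdc42-/- libraries, at a mean of 201.1 RPKM against 143.3 RPKM in WT (limma, adjusted p 0.0524). Markers of CD8 T and NK cells summed to 24.9 to 30.1 RPKM in the WT and Cdc42+/- libraries and to 55.1 and 51.2 RPKM in the Cdc42-/- pair. Most of that difference came from Nkg7, at a mean of 18.8 RPKM in WT, 17.7 in Cdc42+/- and 42.5 in Cdc42-/-, while Cd8b1 was at 6.31 to 7.73 RPKM in all 6 libraries. Of the libraries labelled Cdc42-/-, replicate 2 stood apart: its summed level of myeloid markers was 1869 RPKM against 56.4 to 119.7 elsewhere, and of erythroid markers 124 RPKM against 1.99 to 17.9. The summed Y-linked genes were at 116 and 121 RPKM in the WT pair and at 93.0 RPKM in that library. In the other libraries they were at 0.0747 to 0.438 RPKM. Xist was at 0.199 and 1.13 RPKM in the WT pair and 99.3 and 93.3 in the Cdc42+/- pair. In the Cdc42-/- pair it was at 87.4 and 21.2 RPKM. Between WT and Cdc42+/- these sex-linked genes differed along with genotype, so their part cannot be told apart from it there. The part of the marker and sex-linked differences in the results was not tested. Counts of calls without replicate 2 of Cdc42-/- are given further on.

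To show what the members share at their promoters, RefSeq windows from 250 bases before to 50 bases after the gene start (build GRCm38.p6) were searched on both strands for the core of E2F sites, the binding sequence of the factors that switch on S phase genes. The core was searched as TTCCCGC, in a further spelling as TTGGCGC, in another as TTCGCGC, and finally as TTGCCGC. A window was found for 34 of the 41 members, and 20 of these (58.8%) held a core, against 19.3% of the 9725 tested genes with a window. Among members that were higher in the libraries labelled Cdc42-/- than in WT by the test below, 11 of 15 (73.3%) held one, and among those not past the threshold 9 of 19 (47.4%). Short windows around the core follow, written on the strand of the gene with the matching letters in capitals. The first set holds members that rose in the libraries labelled Cdc42-/-.
Brca1: ctagcgctagGCGCCAAgcggccggtt
Bard1: gccgctcagtTTCCCGCtcaggaagtt
Rad51ap1: ctggttttcgGCGGGAAttgaaaccgc
Fanci: gtggagtagaGCGGGAAttttggaagg
Clspn: ccgcgtctggGCGCGAAagctcgaact
Topbp1: cgctcggTTGGCGCGAAagtcggttcc
Chek2: gggattagccGCGGGAAaccaagacgt
These windows lie at chr11:101551918-101551944, chr1:71103164-71103190, chr6:126939559-126939585, chr7:79392346-79392372, chr4:126556991-126557017, chr9:103305188-103305214 and chr5:110839821-110839847, in the same order. The genes Brca1, Bard1 and Rad51ap1 are on the minus strand and the others on the plus strand. In Topbp1 the capitals cover a pair of matches that overlap.

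The same letters stood at the starts of members that did not pass the threshold, shown next for a break sensor, an end joining gene and a mismatch repair gene.
Atm: agagccggaaGCGGGAAggcgtgcgta
Xrcc6: gggggtggaaGCGGGAAatgcgagtgg
Msh6: cctcccgactTTCCCGCcagcggcggc
Their places are chr9:53536640-53536666 (minus strand), chr15:82016313-82016339 (plus strand) and chr17:87975056-87975082 (plus strand). Atm and Xrcc6 hold the same 7 letters as Rad51ap1, Fanci and Chek2. A core preceded by a further T, in the reading direction of the core, was found in 4 of 15 members that rose, in 3 of 19 that did not pass the threshold and in 4.79% of all tested genes. The CCAAT box, searched as CCAAT, was in 66.7% and 73.7% of the 2 sets of members and in 43.2% of all, and the CHR element of mitotic genes, searched as TTTGAA and TTCGAA, was in 8.82% of members and 16.8% of all. A match is a string of letters in a window and not a measured binding site.

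A longer stretch, the 120 bases before the start, shows where the same core lies in a member that rose and in one that did not pass the threshold. How alike the bases around it are was not measured. Rpa2, a subunit of the single-stranded DNA binding protein RPA, is given first, and Xrcc6, the Ku70 subunit of end joining, next.
Rpa2: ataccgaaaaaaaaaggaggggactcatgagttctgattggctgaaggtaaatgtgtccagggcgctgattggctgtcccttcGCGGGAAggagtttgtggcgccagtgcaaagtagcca
Xrcc6: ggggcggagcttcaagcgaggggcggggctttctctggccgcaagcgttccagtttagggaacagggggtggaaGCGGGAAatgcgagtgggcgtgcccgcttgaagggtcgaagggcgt
The stretches lie on the plus strand at chr4:132768240-132768359 and chr15:82016249-82016368. The core begins 37 bases before the start in Rpa2 and 46 bases before it in Xrcc6.

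In all, 18 members rose in the libraries labelled Cdc42-/- against WT and 0 fell, by limma on log2(RPKM + 1) with Benjamini-Hochberg adjusted p under 0.05 over all 12233 genes. Over all tested genes 6.86% were called higher and 4.57% lower. The rise was concentrated by count in 3 functional groups: 9 of 12 homologous recombination genes, 4 of 7 Fanconi anaemia genes and 4 of 8 replication checkpoint and RPA genes rose. Of the break sensors and p53 1 of 7 rose, and of the end joining genes and the mismatch and single-strand break genes none of 4 and none of 3. At an unadjusted p under 0.05 the last 2 groups had 0 and 2 members, against 29.3% of all tested genes, and with voom on recovered reads both still had 0 calls. Over the 13 alternative fits the log2 fold change was 0.28 to 0.44 for Msh6 and 0.27 to 0.59 for Parp1, both of the last group. Whether these 2 genes passed the threshold depended on the fit. The median log2 fold change was 1.73, 1.48, 0.84, 0.05, -0.21 and 0.36 in these groups in the same order, against 0.01 for all tested genes. Whether cells with more of these transcripts became more numerous or single cells held more of them cannot be told apart in bulk RNA.

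The rise of the 18 members ranged from 2.21-fold in mean RPKM (Palb2) to 26.9-fold (Rad51ap1), with a median of 5.56-fold. They were mostly genes that WT Treg cells held at a low level. Of the 22 members with a WT mean under 5 RPKM 16 rose, and of the 19 at or above it 2 rose, Topbp1 and Rpa2. The WT values enter both this split and the change itself. Shares of all tested genes on either side of 5 RPKM were not taken, so the split is a description only. In each of the 18, both libraries labelled Cdc42-/- were above both WT libraries, and the Cdc42+/- mean lay between the means of WT and Cdc42-/-. Replicate 2 of Cdc42-/- was above replicate 1 in 17 of the 18. Among all 41 members, 29 had both Cdc42-/- libraries above both WT libraries, against 28.9% of all tested genes, and 5 had both below (Atrip, Atm, Trp53, Xrcc5 and Prkdc), against 27.1%.

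The number of calls depended on which libraries entered the fit, among members and among all tested genes. Without replicate 2 of Cdc42-/-, the library with the high myeloid markers, 18 members were again called higher, of which 17 were the same: Palb2 dropped out and Mdm2 came in. In that fit 9.89% of all tested genes were called higher. By functional group, in the order above, 8, 4, 4, 2, 0 and 0 members were called higher there. Without replicate 1 of WT 5 members were called higher (Bard1, Rad51ap1, Chek1, Topbp1 and Clspn), and without replicate 2 of WT these and Chek2, 6 in all. Over all tested genes 1.58% and 1.6% were called higher in these fits. Without replicate 1 of Cdc42-/- 27 were called higher and 2 lower, Atm and Trp53, with log2 fold changes of -0.53 and -0.42. In that fit 20.8% of all tested genes were called higher and 15.4% lower, so the 2 lower calls among 41 members were under the background.

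**Figure D1:**
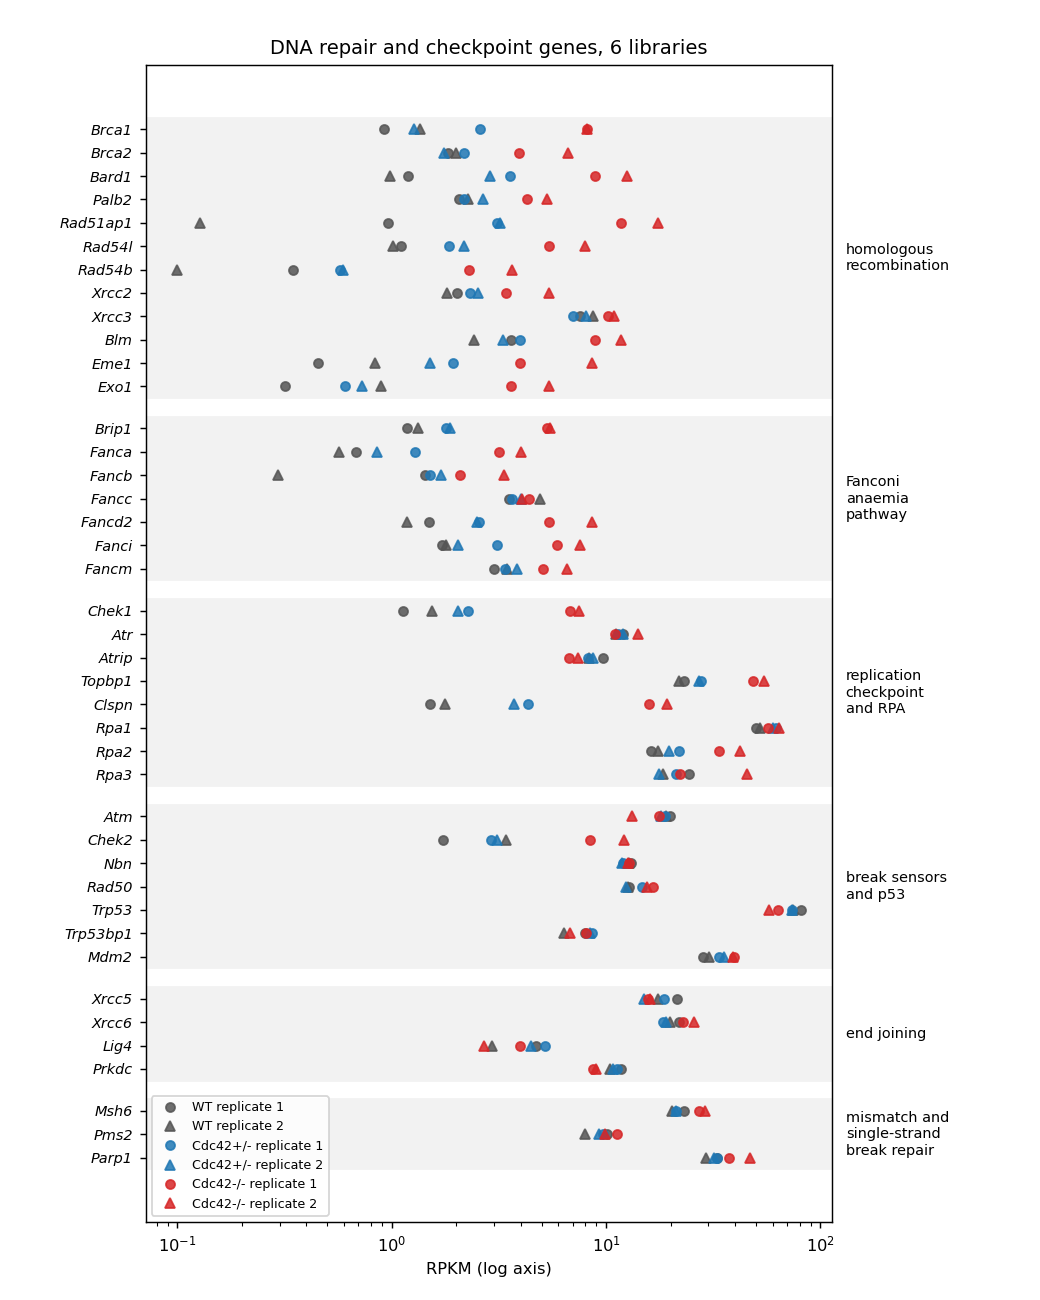
RPKM of each of the 41 genes (log axis) in the 6 libraries, with circles for replicate 1 and triangles for replicate 2, grouped by function. The Cdc42-/- points of the 18 genes that rose lie to the right of both WT points, while those of Atm and Trp53 lie to the left.

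In Cdc42-/- against WT, homologous recombination genes had the largest median change of the 6 groups. Rad51ap1, a protein that assists strand exchange, had 0.959 and 0.127 RPKM in the WT pair (28 and 2 reads), 3.09 and 3.21 in the Cdc42+/- pair, and 11.7 and 17.5 in the Cdc42-/- pair (238 and 294 reads). The 3 genotypes did not overlap, and its log2 fold change in Cdc42-/- against WT was 3.37 (SE 0.32, adjusted p 0.00318). Because 1 WT library rested on 2 reads, the size of this change is less certain than its direction.

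BRCA1 and BARD1 form the ubiquitin ligase that prepares broken ends for recombination. Bard1 had 1.19 and 0.986 RPKM in the WT pair, 3.56 and 2.88 in the Cdc42+/- pair and 8.91 and 12.5 in the Cdc42-/- pair, again with no overlap between genotypes (log2 fold change in Cdc42-/- against WT 2.47, SE 0.23, adjusted p 0.00274). Brca1 had 0.917 and 1.35 RPKM in the WT pair, 2.59 and 1.27 in the Cdc42+/- pair and 8.19 and 8.17 in the Cdc42-/- pair (2.11, SE 0.28, adjusted p 0.00764). One of its Cdc42+/- libraries lay between the WT libraries, which was not so for its partner. The level of one partner relative to the other varied: the ratio of Bard1 to Brca1 in RPKM was 1.30 and 0.729 in the WT pair, 1.38 and 2.27 in the Cdc42+/- pair and 1.09 and 1.53 in the Cdc42-/- pair.

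Rad54l, a DNA translocase that drives strand invasion, had 1.11 and 1.02 RPKM in the WT pair, 1.85 and 2.18 in the Cdc42+/- pair and 5.43 and 8.02 in the Cdc42-/- pair (log2 fold change 1.88, SE 0.24, adjusted p 0.00689). Its relative Rad54b was the lowest of the group in WT, at 0.347 and 0.0994 RPKM, and reached 2.28 and 3.63 RPKM in Cdc42-/-. The helicase gene Blm had 3.61 and 2.41 RPKM in the WT pair and 8.90 and 11.7 in the Cdc42-/- pair. Both of these rose, as did the nuclease genes Eme1, from a mean of 0.645 to 6.29 RPKM, and Exo1, from 0.605 to 4.50 RPKM, with Cdc42-/- above WT in every library.

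Palb2, which links BRCA1 to BRCA2, had the smallest change of the group among those that rose, from 2.07 and 2.28 RPKM in WT to 4.27 and 5.33 RPKM in Cdc42-/- (log2 fold change 0.86, SE 0.21, adjusted p 0.0485). Brca2, which loads the recombinase onto DNA, was just outside the threshold, at 1.83 and 1.99 RPKM in WT and 3.95 and 6.67 RPKM in Cdc42-/- (1.08, SE 0.27, adjusted p 0.0522). Xrcc2, a paralog of the recombinase, had 2.01 and 1.82 RPKM in WT and 3.43 and 5.41 RPKM in Cdc42-/- (adjusted p 0.0705). These 3 genes thus differ little in the size of the change, and the Cdc42-/- libraries of each lay above its WT libraries. Xrcc3, another paralog and the most abundant gene of the group in WT, had 7.58 and 8.73 RPKM in the WT pair and 10.2 and 10.9 in the Cdc42-/- pair, with a log2 fold change of 0.34 (SE 0.15, adjusted p 0.204). Of the 9 calls in this group 2, Bard1 and Rad51ap1, held when either WT library was left out.

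In the Fanconi anaemia pathway the 4 genes that rose were Brip1, Fancd2, Fanci and Fanca. FANCD2 and FANCI form the clamp that is loaded at a crosslink. Fancd2 had 1.49 and 1.17 RPKM in the WT pair, 2.55 and 2.49 in the Cdc42+/- pair and 5.43 and 8.61 in the Cdc42-/- pair (log2 fold change 1.76, SE 0.25, adjusted p 0.0101). Fanci had 1.71 and 1.79 RPKM in the WT pair, 3.10 and 2.04 in the Cdc42+/- pair and 5.89 and 7.56 in the Cdc42-/- pair (1.48, SE 0.23, adjusted p 0.0138). The levels of both clamp genes stayed near each other, with a ratio of Fancd2 to Fanci between 0.653 and 1.22 over the 6 libraries. Both had genotypes that did not overlap.

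Brip1, a helicase that partners BRCA1, had 1.18 and 1.33 RPKM in the WT pair, 1.79 and 1.88 in the Cdc42+/- pair and 5.29 and 5.48 in the Cdc42-/- pair (log2 fold change 1.50, SE 0.19, adjusted p 0.00732). Fanca, a core complex subunit, had 0.678 and 0.566 RPKM in the WT pair, 1.29 and 0.854 in the Cdc42+/- pair and 3.17 and 4.0 in the Cdc42-/- pair (1.49, SE 0.25, adjusted p 0.0160). None of the 4 calls of this pathway held when either WT library was left out.

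The other 3 genes of the pathway did not pass the threshold. Fancc, a subunit of the same complex as Fanca, had 3.53 and 4.92 RPKM in the WT pair and 4.36 and 4.07 in the Cdc42-/- pair, so that the Cdc42-/- libraries lay between the WT libraries (log2 fold change 0.01, SE 0.20, adjusted p 0.979). Fancb, the 1 member on the X chromosome, had 1.42 and 0.294 RPKM in the WT pair and 2.08 and 3.34 in the Cdc42-/- pair (1.04, SE 0.36, adjusted p 0.120). Fancm, the translocase that anchors the complex to DNA, had 2.99 and 3.46 RPKM in the WT pair and 5.09 and 6.59 in the Cdc42-/- pair (0.69, SE 0.20, adjusted p 0.0769).

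In the replication checkpoint, the mediators and the effector kinase rose while the sensor kinase and its partner did not pass the threshold. Clspn, which encodes the mediator claspin, had the smallest adjusted p of all members. It had 1.50 and 1.78 RPKM in the WT pair, 4.30 and 3.72 in the Cdc42+/- pair and 15.9 and 19.3 in the Cdc42-/- pair (log2 fold change 2.81, SE 0.18, adjusted p 0.00144). Chek1, the effector kinase CHK1, had 1.13 and 1.55 RPKM in the WT pair, 2.26 and 2.03 in the Cdc42+/- pair and 6.81 and 7.51 in the Cdc42-/- pair (1.81, SE 0.20, adjusted p 0.00455). For both genes every library of a genotype was separate from those of the others.

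Topbp1, the activator of ATR, already had a high level in WT, at 23.0 and 21.8 RPKM, and rose to 48.7 and 54.4 RPKM in Cdc42-/-, with 27.6 and 27.1 RPKM in Cdc42+/- (log2 fold change 1.16, SE 0.11, adjusted p 0.00300). Atr itself had 12.0 and 11.1 RPKM in the WT pair, 11.3 and 12.0 in the Cdc42+/- pair and 11.0 and 14.0 in the Cdc42-/- pair (0.10, SE 0.16, adjusted p 0.719), with overlapping libraries. Atrip, which binds ATR, had 9.65 and 8.31 RPKM in the WT pair and 6.72 and 7.36 in the Cdc42-/- pair (-0.31, SE 0.15, adjusted p 0.230). The ratio of effector to sensor, Chek1 to Atr in RPKM, was 0.0938 and 0.139 in the WT pair, 0.200 and 0.170 in the Cdc42+/- pair and 0.620 and 0.535 in the Cdc42-/- pair.

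Of the 3 RPA subunits, which coat single-stranded DNA as a trimer, Rpa2 rose and the other two did not pass the threshold. Rpa2 had 16.2 and 17.6 RPKM in the WT pair, 21.9 and 19.7 in the Cdc42+/- pair and 33.6 and 42.1 in the Cdc42-/- pair (log2 fold change 1.11, SE 0.15, adjusted p 0.00773). Rpa1 was the most abundant, at 50.2 and 52.4 RPKM in WT and 57.0 and 64.3 RPKM in Cdc42-/- (0.24, SE 0.11, adjusted p 0.202). Rpa3 was at 24.3 and 18.5 RPKM in WT, and its Cdc42-/- libraries were far apart, at 22.1 and 45.6 RPKM (0.56, SE 0.33, adjusted p 0.306). Clspn, Chek1 and Topbp1 kept their calls when either WT library was left out, and Rpa2 did not.

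**Figure D2:**
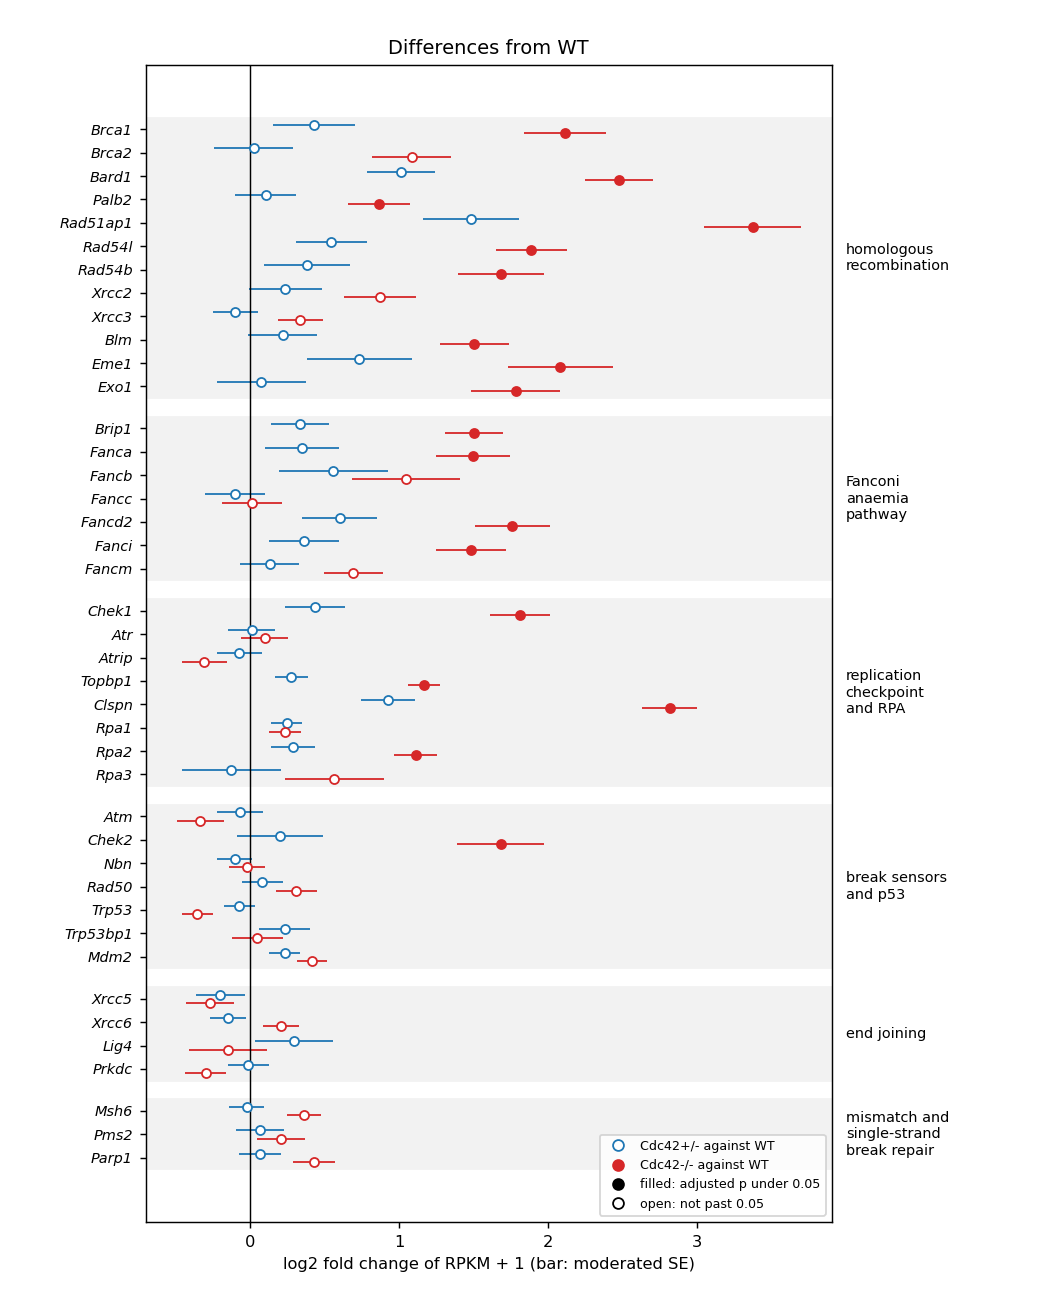
Log2 fold change of RPKM + 1 with its moderated standard error for the 41 genes, Cdc42+/- against WT in blue and Cdc42-/- against WT in red, filled where the adjusted p is under 0.05. The filled points are the 18 genes that rose in Cdc42-/-, from 0.86 (Palb2) to 3.37 (Rad51ap1), and no blue point is filled.

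Among the break sensors and p53, Chek2 was the 1 gene that rose. The checkpoint kinase CHK2 is switched on by ATM at double-strand breaks. Chek2 had 1.73 and 3.43 RPKM in the WT pair, 2.90 and 3.10 in the Cdc42+/- pair and 8.45 and 12.2 in the Cdc42-/- pair (log2 fold change 1.68, SE 0.29, adjusted p 0.0183). The Cdc42+/- libraries lay between the WT libraries. The call was lost in 4 of the 13 alternatives, among them the fit with only the 2 genotypes compared. Its log2 fold change was 1.33 to 2.18 over the alternatives.

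Atm, the kinase above CHK2, did not pass the threshold: it had 19.8 and 19.1 RPKM in the WT pair, 18.9 and 18.1 in the Cdc42+/- pair and 17.6 and 13.2 in the Cdc42-/- pair (log2 fold change -0.34, SE 0.16, adjusted p 0.215). The ratio of Chek2 to Atm was 0.0873 and 0.179 in WT and 0.481 and 0.924 in Cdc42-/-. Nbn and Rad50, subunits of the complex that binds broken ends, did not pass the threshold: Nbn was between 11.9 and 13.1 RPKM in all 6 libraries, and Rad50 had 12.8 and 12.6 RPKM in the WT pair and 16.5 and 15.5 in the Cdc42-/- pair (adjusted p 0.199). Trp53bp1, the factor that steers a break towards end joining, had 8.0 and 6.35 RPKM in the WT pair and 8.03 and 6.81 in the Cdc42-/- pair (0.05, SE 0.17, adjusted p 0.878). As Brca1 steers the other way, their ratio was taken: Brca1 to Trp53bp1 was 0.115 and 0.213 in the WT pair, 0.300 and 0.150 in the Cdc42+/- pair and 1.02 and 1.20 in the Cdc42-/- pair.

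Trp53, which encodes p53, was the most abundant of the 41 genes in WT. It had 81.1 and 74.3 RPKM in the WT pair, 73.7 and 73.5 in the Cdc42+/- pair and 63.2 and 57.8 in the Cdc42-/- pair, so that both Cdc42-/- libraries were below the other 4, with a log2 fold change of -0.36 that missed the threshold (SE 0.10, adjusted p 0.0799). Mdm2, both the inhibitor and a transcriptional target of p53, had 28.4 and 30.1 RPKM in the WT pair, 33.5 and 35.4 in the Cdc42+/- pair and 39.7 and 39.1 in the Cdc42-/- pair (0.42, SE 0.10, adjusted p 0.0509). Its 3 genotypes did not overlap, and its log2 fold change was 0.34 to 0.46 over the 13 alternative fits. Whether it passed the threshold depended on the fit. The ratio of Mdm2 to Trp53 was 0.350 and 0.405 in the WT pair, 0.455 and 0.482 in the Cdc42+/- pair and 0.627 and 0.676 in the Cdc42-/- pair, with no overlap.

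None of the 4 end joining genes passed the threshold in any of the 3 comparisons in the fit reported. Xrcc6 had a log2 fold change of 0.36 in Cdc42-/- against Cdc42+/- (SE 0.12, adjusted p 0.131). Whether it passed there depended on the libraries kept. Ku, the ring that holds broken ends, is made from Xrcc5 and Xrcc6. Xrcc5 had 21.5 and 17.5 RPKM in the WT pair, 18.7 and 15.0 in the Cdc42+/- pair and 15.7 and 16.1 in the Cdc42-/- pair (log2 fold change -0.27, SE 0.16, adjusted p 0.310). Xrcc6 had 21.9 and 19.8 RPKM in the WT pair, 18.4 and 19.0 in the Cdc42+/- pair and 22.8 and 25.7 in the Cdc42-/- pair (0.21, SE 0.12, adjusted p 0.308). Their fold changes had opposite signs, neither past the threshold, and their ratio, Xrcc5 to Xrcc6, was 0.981 and 0.882 in the WT pair, 1.01 and 0.791 in the Cdc42+/- pair and 0.688 and 0.625 in the Cdc42-/- pair.

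Prkdc, the kinase that Ku recruits, had 11.8 and 10.4 RPKM in the WT pair, 11.2 and 10.8 in the Cdc42+/- pair and 8.67 and 8.98 in the Cdc42-/- pair (log2 fold change -0.30, SE 0.14, adjusted p 0.204). Lig4, the ligase that seals the break, was the lowest of the 4, at 4.71 and 2.95 RPKM in the WT pair, 5.21 and 4.46 in the Cdc42+/- pair and 3.99 and 2.68 RPKM in the Cdc42-/- pair (-0.15, SE 0.26, adjusted p 0.741). Its WT libraries were further apart than the means of the genotypes. The direction for Lig4 turned positive, to 0.12, without replicate 1 of WT.

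Mismatch and single-strand break repair was represented by 3 genes, none past the threshold. Parp1, the sensor of single-strand breaks, had 32.8 and 29.2 RPKM in the WT pair, 32.8 and 32.0 in the Cdc42+/- pair and 37.5 and 47.0 in the Cdc42-/- pair (log2 fold change 0.43, SE 0.14, adjusted p 0.105). Msh6, a mismatch sensor subunit, had 23.0 and 20.4 RPKM in the WT pair, 21.2 and 21.3 in the Cdc42+/- pair and 27.2 and 29.0 in the Cdc42-/- pair (0.36, SE 0.12, adjusted p 0.0994). For these 2 genes both Cdc42-/- libraries were above all others. Pms2, the nuclease that cuts near a mismatch, had 10.1 and 7.98 RPKM in the WT pair, 9.65 and 9.24 in the Cdc42+/- pair and 11.2 and 9.85 in the Cdc42-/- pair (adjusted p 0.435), with overlap.

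In the libraries labelled Cdc42+/- no member passed the threshold against WT in either direction, where 0.0% of all tested genes were called higher and 0.0% lower. At an unadjusted p under 0.05 limma had 4 members, Bard1, Rad51ap1, Clspn and Topbp1, and 529 of all tested genes, and with voom on recovered reads 0 members passed. The median log2 fold change was 0.31 for homologous recombination, 0.35 for the Fanconi anaemia pathway, 0.26 for the replication checkpoint and RPA, 0.08 for break sensors and p53, -0.08 for end joining and 0.07 for mismatch and single-strand break repair, against 0.03 for all tested genes. Both Cdc42+/- libraries were above both WT libraries in 18 members, against 26.2% of all tested genes, and below both in 4 (Atm, Nbn, Trp53 and Xrcc6), against 17.0%. The largest change was in Rad51ap1, with 1.48 (SE 0.32, adjusted p 0.492), followed by Bard1 with 1.01 (SE 0.23, adjusted p 0.497) and Clspn with 0.92 (SE 0.18, adjusted p 0.420).

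The authors' deposited table did call 3 members higher in Cdc42+/- than in WT, and these were Bard1, Rad51ap1 and Clspn, with log2 fold changes of 1.52, 2.39 and 1.27. It called 0 members lower there. Over all genes of the same table, 1.72% were called higher. For Cdc42-/- against WT the authors' deposited table called 18 members higher and 0 lower, against 6.0% of all genes called higher. Of these, 17 were also called by limma here, Brca2 was called in the authors' deposited table alone, and Palb2 by limma alone.

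Against Cdc42+/- rather than WT, the libraries labelled Cdc42-/- had 16 members called higher and 0 lower, where 4.68% of all tested genes were called higher and 3.54% lower. The 16 were the 18 genes named above without Palb2 and Eme1. By group there were 7 homologous recombination genes, 4 Fanconi anaemia genes, 4 checkpoint and RPA genes and Chek2. Clspn had a log2 fold change of 1.89 (SE 0.18, adjusted p 0.00811), Topbp1 of 0.89 (SE 0.11, adjusted p 0.0114) and Chek1 of 1.37 (SE 0.20, adjusted p 0.0161). Both Cdc42-/- libraries were above both Cdc42+/- libraries in 32 members, against 28.6% of all tested genes, and below both in 6, against 30.4%. This comparison shares its Cdc42-/- libraries with the comparison against WT. Its count was 4 without either WT library (Rad51ap1, Chek1, Topbp1 and Clspn), where 1.32% (without replicate 1) and 1.39% (without replicate 2) of all tested genes were called higher. It was 0 without either Cdc42+/- library, where 0.0% of all tested genes were called. Without replicate 1 of Cdc42-/- it was 25, with Atm and Trp53 called lower, against 19.3% of all tested genes higher and 15.5% lower. Without replicate 2 of Cdc42-/- it was 14, against 7.28% higher.

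Summed by library, the levels separated the groups of genes. The homologous recombination genes summed to 22.4 and 22.5 RPKM in the WT pair, 31.8 and 30.7 in the Cdc42+/- pair and 74.9 and 103.9 in the Cdc42-/- pair. The Fanconi anaemia genes summed to 13.0 and 13.5 RPKM in the WT pair, 17.3 and 16.8 in the Cdc42+/- pair and 31.3 and 39.7 in the Cdc42-/- pair. The end joining genes summed to 60.0 and 50.6 RPKM in the WT pair, 53.6 and 49.1 in the Cdc42+/- pair and 51.1 and 53.5 in the Cdc42-/- pair. In WT the 4 end joining genes together thus outweighed the 12 recombination genes, and in Cdc42-/- the order was the other way round in both libraries. The fold of Cdc42-/- over WT in these sums was 3.98 for homologous recombination, 2.67 for the Fanconi anaemia pathway, 1.68 for the checkpoint and RPA, 0.999 for break sensors and p53, 0.946 for end joining and 1.31 for mismatch and single-strand break repair. With replicate 1 of Cdc42-/- alone, the library without the high myeloid markers, these folds were 3.33, 2.36, 1.49, 1.03, 0.924 and 1.23.

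Lists of replication and mitosis markers were higher in the Cdc42-/- libraries too, as were the sums of the first 3 groups. The mismatch and single-strand break sum was also higher, at 75.95 and 85.88 RPKM against 57.6 to 65.89 elsewhere. The sums of break sensors and end joining were not. The 22 replication and S phase markers, among them Rrm2, Mcm3 and Mcm5, summed to 358.5 and 352 RPKM in the WT pair, 464 and 432 in the Cdc42+/- pair and 877 and 1257 in the Cdc42-/- pair, and 21 of the 22 rose in Cdc42-/- against WT. The 18 mitosis markers, among them Mki67, Ccna2 and Top2a, summed to 58.3 and 62.5 RPKM in the WT pair, 209 and 181 in the Cdc42+/- pair and 755 and 1091 in the Cdc42-/- pair, and all 18 rose. With only the 2 genotypes compared, 14 and 18 were called higher, where 3.11% of all tested genes were. The folds of these sums over the WT mean were 3.0 and 15.3, and 2.47 and 12.5 with replicate 1 of Cdc42-/- alone. Set against the replication sum of the same library, the homologous recombination sum was 6.25% and 6.41% in the WT pair, 6.87% and 7.09% in the Cdc42+/- pair and 8.54% and 8.27% in the Cdc42-/- pair. The checkpoint and RPA sum was 38.5% and 37.8% of it in WT and 23.0% and 20.3% in Cdc42-/-. The Fanconi anaemia sum was between 3.16% and 3.89% of it in all 6 libraries, with the lowest value in Cdc42-/-. For end joining the share was 16.7% and 14.4% in WT and 5.83% and 4.26% in Cdc42-/-. Set against the mitosis sum, the homologous recombination sum was 38.4% and 36.1% in WT and 9.92% and 9.52% in Cdc42-/-. The part of a larger share of cycling cells in the members' rise was not tested.

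**Figure D3:**
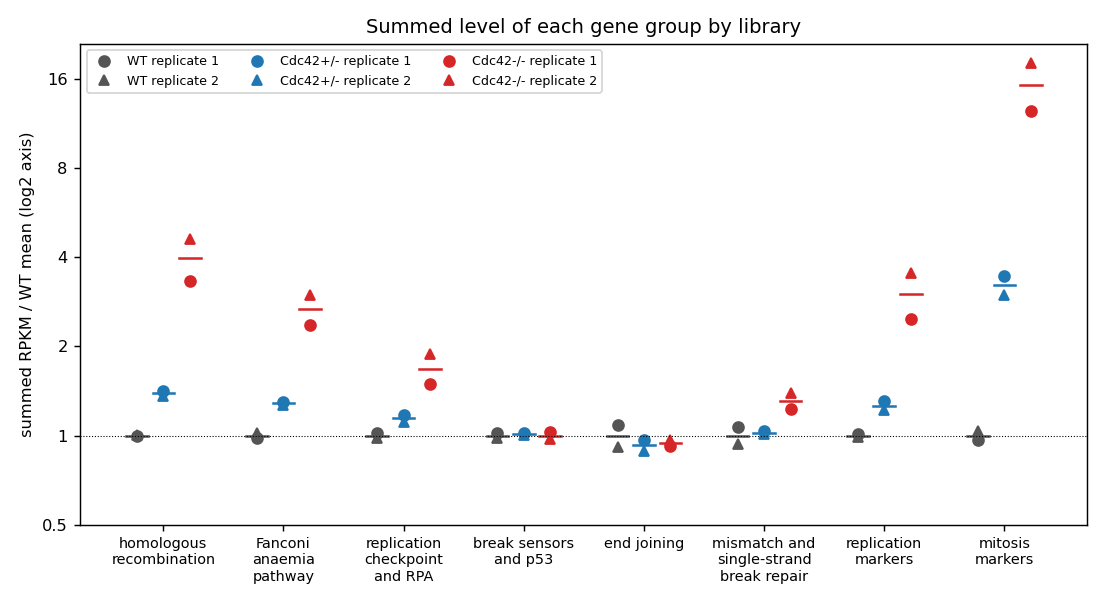
Summed RPKM of each functional group in each library divided by the WT mean of that sum (log2 axis), beside the sums of replication and mitosis markers, with short lines at genotype means. The first 3 groups stand above 1 in both Cdc42-/- libraries, and break sensors and end joining stay near 1. Mismatch and single-strand break repair has a Cdc42-/- mean of 1.31, and mitosis markers reach a mean of 15.3.

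Genes of the same pathways outside the 41 were counted in the same way, against 6.86% called higher and a median of 0.01 over all tested genes. Differences between these lists were not tested. Of 35 further genes of recombination and crosslink repair 11 rose in Cdc42-/- against WT and 0 fell, with a median log2 fold change of 0.45. Fignl1, which takes the recombinase off DNA, went from 2.79 and 2.00 RPKM in WT to 19.5 and 25.9 RPKM in Cdc42-/-, and Uhrf1, which binds hemimethylated DNA behind the fork, from 6.48 and 6.15 to 44.0 and 63.5 RPKM. Of 24 further genes of damage signalling and the checkpoint 5 rose and 0 fell, with a median of 0.25. H2afx, the histone variant that is phosphorylated at breaks, led them, with 17.6 and 15.6 RPKM in the WT pair, 28.4 and 28.9 in the Cdc42+/- pair and 72.3 and 93.6 RPKM in the Cdc42-/- pair (2.25, SE 0.15, adjusted p 0.00144). Wee1, the kinase that holds cells before mitosis, and Tipin, a fork protection factor, rose with it. Of 10 further end joining genes 1 rose, Tdp2, from 18.5 and 17.4 to 28.1 and 25.9 RPKM, and the median was -0.04. A single call among 10 genes is near the background. With only the 2 genotypes compared, these 3 lists had 6, 1 and 0 genes called higher and 0 lower. In that fit 3.11% of all tested genes were called higher and 1.27% lower. The folds of their sums over the WT mean were 1.58, 1.31 and 1.04. With replicate 1 of Cdc42-/- alone they were 1.41, 1.24 and 1.07.

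Of 27 p53 target genes listed, 25 were tested, of which 2 rose and 3 fell in Cdc42-/- against WT, with a median log2 fold change of 0.14 against 0.01 for all tested genes. These are 8.0% higher and 12.0% lower, against 6.86% and 4.57% of all tested genes. With only the 2 genotypes compared, 2 were called higher and 1 lower, against 3.11% and 1.27% of all tested genes. The fold of the list's sum over the WT mean was 0.969, and 0.954 with replicate 1 of Cdc42-/- alone. Pmaip1, the cell death gene Noxa, rose from 4.50 and 4.09 RPKM in WT to 35.0 and 38.2 RPKM in Cdc42-/- (2.83, SE 0.16, adjusted p 0.00144), with 6.53 and 5.18 RPKM in Cdc42+/-. Cdkn1a, the cell cycle inhibitor p21, rose from 0.710 and 2.01 RPKM to 11.6 and 15.3 RPKM (2.66, SE 0.31, adjusted p 0.00539). Sesn1, a stress-induced inhibitor of growth signalling, fell from 51.7 and 49.4 RPKM to 18.4 and 10.6 RPKM (-1.78, SE 0.24, adjusted p 0.00821). The other 2 that fell were Trp53inp1 and Btg2. The other 20 did not pass the threshold, among them Bax, with 63.5 and 62.0 RPKM in WT and 72.1 and 79.8 RPKM in Cdc42-/-, and Ccng1, with 50.8 and 48.9 RPKM in WT and 43.0 and 56.3 RPKM in Cdc42-/-.

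**Figure D4:**
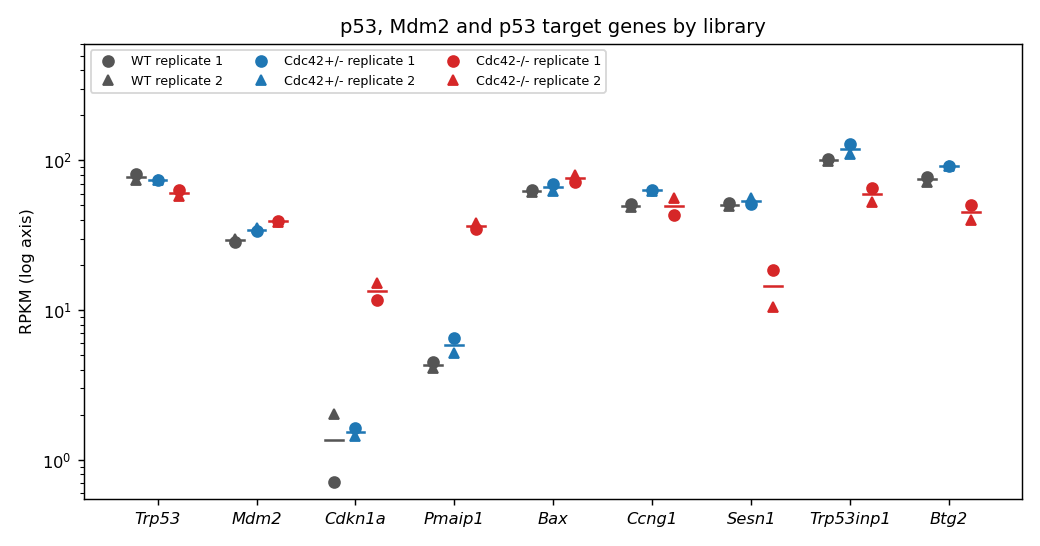
RPKM (log axis) of Trp53, Mdm2 and 7 p53 target genes in each library, with short lines at genotype means. Cdkn1a and Pmaip1 are higher and Sesn1, Trp53inp1 and Btg2 lower in both Cdc42-/- libraries than in every other library. Bax is also above every other library there, at 72.1 and 79.8 RPKM against 62.0 to 69.7, and was not called. Ccng1 lies on both sides of WT.

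Low read numbers and shared exons limit some members. There were 6 members with fewer than 30 reads in a WT library (Rad51ap1, Rad54b, Eme1, Exo1, Fanca and Fancb), and 5 of these were among the 18 that rose. In the GENCODE annotation of GRCm38, 7 members share over 10% of their exon bases with 1 other gene, and whether the counting used strand is not given in the sources used here. Rad54b shares 35.8% with Fsbp on the same strand, Fanci 16.0% with Polg, Rad54l 15.4% with Lrrc41 and Fanca 10.5% with Zfp276 on the opposite strand, and for these genes that rose reads of the neighbour may be included.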

How the data were processed

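RNA of sorted splenic Treg cells was measured in 6 libraries, 2 for each of 3 genotypes, grouped by sample title. Per the labels' protocols, libraries were made with an Illumina TruSeq RNA kit. The submitters' processing notes name TopHat and mm10, and the counting tool, annotation and strand setting are not given in the sources used here. Each library's column holds RPKM computed by the authors, a unit worked out from the values, since the file headers name none. Per the file headers the deposited tables also hold a mean per group, which in the values is a signal, namely reads scaled by the authors with a size factor per library. The authors' fold change per gene (a ratio), the log2 of it and p-values, raw and adjusted, are deposited too.

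Whole reads and gene lengths were recovered from these columns, and 100% of values came out whole, to within 0.01 reads, in each library. The main test used limma 3.58.1 (R 4.3.3; functions lmFit and eBayes with a trend) on log2(RPKM + 1), the pseudocount being 1. It covered the 12233 genes whose mean over 6 libraries reached 0.5 RPKM, all libraries entered 1 fit, and two-sided p-values were adjusted by Benjamini-Hochberg over all genes at 0.05. This scale understates the change of low genes. SE stands for the moderated standard error. Alternatives were a pseudocount of 0.1, no filter, upper-quartile scaling, only the 2 genotypes compared, array weights, voom on recovered reads, a replicate block and leaving out each library. The fit was tested on simulated libraries. Sequences are RefSeq's, from GRCm38.p6.

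The members and gene lists were chosen with earlier results of these data known, so no list is independent evidence. Every member is accounted for. Library values and tests were given for up to 4 members of each functional group, taken by smallest p in the comparison of Cdc42-/- with WT, for Chek1, Chek2, Trp53, Mdm2, Atm, Atr and the 4 end joining genes whatever their values, and for at most 3 genes of a further list. Values of the remaining members, and of Bax, Ccng1, Trp53inp1 and Btg2, were added after they were seen.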

Additional observations from a re-analysis of the deposited data

How the results depend on the processing

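With 2 libraries per genotype the calls rest on few degrees of freedom, and leaving out 1 library moved them most. The number of members called higher in Cdc42-/- against WT, 18 in the fit reported, was 12 to 20 under the alternatives that kept all 6 libraries or both genotypes compared, and 5 to 27 when 1 library was left out. Over all genes tested the share called higher was 3.11% to 7.05% and 1.58% to 20.8% in the same fits. The number called lower was 0 to 2 over those fits. For Cdc42+/- against WT the numbers were 0 higher and 0 lower throughout, except for 1 higher with array weights, Clspn, where 0.613% of all genes tested were called higher. That share was at most 0.482% in the other fits. For Cdc42-/- against Cdc42+/-, 16 in the fit reported, the number higher was 4 with only the 2 genotypes compared (1.46% of all genes tested), 10 with array weights (3.58%) and 0 to 25 when 1 library was left out (0.0% to 19.3%), and the number lower was 0 to 2 in the latter. Where an arm was left with 1 library, that library was assumed to vary like those of the other genotypes. Bard1, Chek1, Clspn, Rad51ap1 and Topbp1 kept their call in Cdc42-/- against WT in all 13 alternatives, and Palb2 lost it in 10.

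Some members near 0 changed sign. Upper-quartile scaling, which moved the median of all tested genes from 0.01 to -0.06 and the split of calls from 839 higher and 559 lower to 731 and 753, gave -0.058 for Fancc and -0.027 for Trp53bp1. When 1 library was left out, the log2 fold change ranged from -0.18 to 0.20 for Fancc, from -0.068 to 0.26 for Atr, from -0.10 to 0.19 for Trp53bp1 and from -0.41 to 0.12 for Lig4. The cause was not tested. With a replicate block the number of members higher was 17 in Cdc42-/- against WT, 0 in Cdc42+/- against WT and 12 in Cdc42-/- against Cdc42+/-, and 0 were lower. In these fits 5.67%, 0.0% and 3.95% of all genes tested were called higher. Deviations of libraries with the same replicate number were correlated over genes. The correlations were 0.0177 (WT with Cdc42+/-), 0.202 (WT with Cdc42-/-) and -0.0343 (Cdc42+/- with Cdc42-/-). With 2 libraries per genotype this check cannot show whether libraries of the same number shared a batch.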

Other observations

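Of 27 mismatch, base and nucleotide excision repair genes listed outside the 41, 26 were tested, of which 3 rose in Cdc42-/- against WT and 0 fell, where 6.86% of all tested genes were called higher and 4.57% lower, with a median log2 fold change of -0.08 against 0.01 for all tested genes. The 3 were Lig1, the ligase that joins Okazaki fragments, Fen1, the nuclease that trims them, and Neil3, a DNA glycosylase. Lig1 had 8.48 and 8.86 RPKM in the WT pair, 14.4 and 14.5 in the Cdc42+/- pair and 39.9 and 50.8 in the Cdc42-/- pair (limma log2 fold change 2.25, SE 0.15, adjusted p 0.00144). Neil3 had 1.17 and 1.61 RPKM in the WT pair, 5.50 and 3.89 in the Cdc42+/- pair and 14.8 and 20.4 in the Cdc42-/- pair (2.95, SE 0.24, adjusted p 0.00205). Fen1 had 9.76 and 12.2 RPKM in the WT pair and 24.4 and 32.3 in the Cdc42-/- pair (1.29, SE 0.18, adjusted p 0.00939). With only the 2 genotypes compared, the list also had 3 genes called higher and 0 lower, against 3.11% and 1.27% of all tested genes. The fold of its sum over the WT mean was 1.22, and 1.19 with replicate 1 of Cdc42-/- alone. For Lig1, Neil3 and Fen1 both Cdc42+/- libraries were above both WT libraries too.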
